A study of Mus musculus with 17 samples.

Results

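The organic cation and carnitine transporters described here were 7 genes, chosen by name and by function: Slc22a2, Slc22a4, Slc22a5, Slc47a1, Abcb1a, Abcc2 and Abcc4. Their values were not the rule of choice, but earlier results of these data were known when the genes, lists and tests were chosen. All 7 were among the 22558 genes used of the deposited table, and all 7 passed the filter on low counts in every comparison. RNA of whole kidneys had been sequenced from 17 male mice, 1 library per mouse. The Ctrl group held 5 C57BL/6 mice with a wild-type leptin receptor, the Case group 6 untreated db/db mice (BKS.Cg-Dock7m +/+ Leprdb/J, which lack a working leptin receptor and become obese and diabetic), and the Dapa group 6 db/db mice that received daily gavage with 1.0 mg/kg dapagliflozin, which blocks SGLT2, the main carrier of glucose reabsorption. All mice were 8 weeks old at the start, the dosing lasted 6 weeks, and the mice without drug received saline. The db/db mice stood on the BKS background and the Ctrl mice on C57BL/6, so strain and leptin receptor genotype cannot be told apart in any comparison with Ctrl.

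The proximal tubule clears organic cations from blood to urine in a pair of steps. OCT2, the product of Slc22a2, takes up cations such as creatinine and metformin across the basolateral membrane, and MATE1, the product of Slc47a1, passes them into the urine in exchange for protons. OCTN2 (Slc22a5) works in the other direction and recovers filtered carnitine, which cells need to carry long-chain fatty acids into mitochondria, while its neighbour OCTN1 (Slc22a4) carries the antioxidant ergothioneine. P-glycoprotein (Abcb1a), MRP2 (Abcc2) and MRP4 (Abcc4) are pumps driven by ATP that export drugs, conjugates and, for MRP4, cyclic nucleotides and urate.

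Both db/db groups held less RNA of the cation pair and of the carnitine transporter than Ctrl, and more of Abcc4. Against Ctrl, 4 of the 7 genes passed the test in Case (3 lower and 1 higher) and 5 of the 7 in Dapa (4 lower and 1 higher). Of all genes tested, 13% of 14582 passed in Case against Ctrl (6.09% higher and 6.91% lower) and 29.1% of 14647 in Dapa against Ctrl (14.2% higher and 14.9% lower). Between Dapa and Case none of the 7 passed, nor did any of the 14573 genes tested (0%), with edgeR's quasi-likelihood test, which gave 1880 genes (12.9%) an unadjusted p under 0.05. For the same comparison DESeq2 called 202 genes and edgeR's exact test 129, none of them among the 7. A gene is said to pass, or to have risen or fallen, at an adjusted p under 0.05 (edgeR's quasi-likelihood test on the counts, Benjamini-Hochberg over all genes tested). Levels are in FPKM, which scales the count by the length of the gene and by the total of the library, and each comparison with Ctrl used the same 5 mice, so the Case and Dapa values against Ctrl are not independent of each other.

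The libraries held 13039535 to 17779635 counts, and mitochondrial genes took 17.9% to 20.4% of them in Ctrl, 19.8% to 27.3% in Case and 19.7% to 27.6% in Dapa. Slc5a2, the target of dapagliflozin, lay at 62.1 ± 6.03 FPKM in Ctrl (SD, n = 5), 53.7 ± 21.2 in Case and 65.4 ± 12.7 in Dapa (SD, n = 6 each). Lepr was detected in all 17 mice, but the db allele alters splicing, so a count per gene does not check the genotype. In 7 libraries (Ctrl 1, 3 and 4, Case 1 and Dapa 10, 11 and 12) the deposited FPKM of 3 genes did not match their counts. These libraries were treated as a possible batch, and values of the 7 genes within and outside them are given beside the results. The genes of the marker list of the proximal tubule, in which most of these transporters act, moved with the groups. All 20 were detected, 10 of the 20 fell and none rose in Case against Ctrl (median log2 fold change -0.67), 15 fell and none rose in Dapa against Ctrl (median -0.69), and none passed between Dapa and Case (median 0.02). Their summed level was 12130 to 19997 FPKM in Ctrl, 3353 to 6704 in Case and 3649 to 8591 in Dapa. Much of that sum was Kap, an abundant androgen-regulated gene, and without it the other 19 summed to 4428 to 5366 FPKM in Ctrl, 2638 to 4268 in Case and 2742 to 4051 in Dapa. Of 12 markers of the loop of Henle, distal nephron and collecting duct, 5 rose in Case and 8 in Dapa against Ctrl and none fell. Of the erythrocyte markers, all 5 rose in both, and their summed level was 18.2 to 69.6 FPKM in Ctrl, 56.7 to 436 in Case and 110 to 358 in Dapa. Of the other lists, 2 of 5 podocyte markers rose in each comparison with Ctrl, 3 of 6 fibroblast and mural markers rose in Dapa against Ctrl, 1 of 3 tested T and NK cell markers rose in Dapa and 1 of 2 tested B and plasma cell markers fell in Case against Ctrl, and none of the endothelial (6), macrophage (7) and adipocyte (1 tested) markers passed. The part of these shifts in the transporter results below was not tested. In whole tissue, fewer cells of a type and less RNA per cell cannot be told apart.

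The genes sit in clusters of relatives. On mm10, Slc22a2 lies at chr17:12584189-12628465 next to its relative Slc22a3 (chr17:12419972-12507704). Slc22a5 (chr11:53864542-53891660) and Slc22a4 (chr11:53983123-54028090) flank Slc22a21 (chr11:53949965-53980332), and Slc47a1 lies farther along the same chromosome at chr11:61343401-61378345. Abcb1a (chr5:8660077-8748575) is followed by its close copy Abcb1b (chr5:8798147-8866315), Abcc2 lies at chr19:43782192-43840740 and Abcc4 at chr14:118482692-118706219. GENCODE vM21 lists all 7 as protein coding, and an exon of another gene overlaps an exon only in Abcb1a (Gm42686, on the opposite strand). Of the 50-base stretches of their transcripts, 26.3% of those of Slc22a5 also occur in other genes, most in Slc22a21, and 22.5% of those of Abcb1a, most in Abcb1b. The share was 4.44% for Slc22a2, 2.64% for Slc22a4, 0.154% for Abcc2, 0.125% for Abcc4 and 0 for Slc47a1. Counts of Slc22a5 and Abcb1a are therefore uncertain to the extent that the counting split such reads between copies.

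The stretches before the start sites of the uptake transporters Slc22a2 and Slc22a5, which fell, and of the pump Abcc4, which rose, are printed so that members that moved in opposite directions can be read side by side. They come from RefSeq's starts on GRCm38.p6, run 5′ to 3′ on the strand of the gene and end at its start or, for Slc22a2, where GENCODE places the earlier start of the gene (chr17:12583939-12584131 on the plus strand; chr11:53891704-53891953 and chr14:118706220-118706469 on the minus strand). Bases just after RefSeq's start occurred in 2 of 2 GENCODE transcripts of Slc22a2, 0 of 3 of Slc22a5 and 1 of 6 of Abcc4. Positions below count from RefSeq's start, which other transcripts may not use. Capitals mark matches of the motifs named next.
Slc22a2: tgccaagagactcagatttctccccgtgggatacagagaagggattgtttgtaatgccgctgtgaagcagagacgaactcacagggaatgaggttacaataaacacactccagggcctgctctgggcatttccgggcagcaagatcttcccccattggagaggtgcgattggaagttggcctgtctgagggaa
Slc22a5: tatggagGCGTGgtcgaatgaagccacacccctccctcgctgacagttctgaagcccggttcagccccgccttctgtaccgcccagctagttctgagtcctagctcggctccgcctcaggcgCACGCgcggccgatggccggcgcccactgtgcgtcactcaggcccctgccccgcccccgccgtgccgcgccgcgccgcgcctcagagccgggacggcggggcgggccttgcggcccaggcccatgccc
Abcc4: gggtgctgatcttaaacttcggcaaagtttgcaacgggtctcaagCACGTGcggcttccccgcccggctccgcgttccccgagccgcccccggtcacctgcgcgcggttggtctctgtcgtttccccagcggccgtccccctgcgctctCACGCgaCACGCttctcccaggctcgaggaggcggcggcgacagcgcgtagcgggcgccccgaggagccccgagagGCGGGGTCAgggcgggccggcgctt
The motifs searched on both strands of the 250 bases before each of 32851 starts included a direct repeat of AGGTCA with any 1 base between the copies (read by HNF4A and PPARA, in 0.033% of all promoters), CAAAGTCCA (an HNF4A core, 0.384%), AGGTCA (the core of many nuclear receptor sites, which also makes up the direct repeat, 14%), TGACNNNGC (the antioxidant response core, 10.2%), GCGTG (the AHR core, 28.2%), TATAAA (the TATA box, 12.4%) and CACGTG (the E box, 6.02%). Slc22a2 held none of these in its 250 bases. Slc22a5 held 2 matches of the AHR core, whose leftmost bases lay at -243 and -128 from the start. Abcc4 held the antioxidant response core at -25 on the opposite strand, the AHR core at -101 and -94 and the E box at -205. Neither the antioxidant response core nor the E box was particular to Abcc4. Of the members not printed, Slc22a4, which fell in Dapa against Ctrl, held the E box at -228 and the AHR core at -157 and -194. Abcc2, which passed in no comparison, held the antioxidant response core at -98 and AGGTCA at -49. These are matches of letters only and say nothing of binding.

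**Figure D1:**
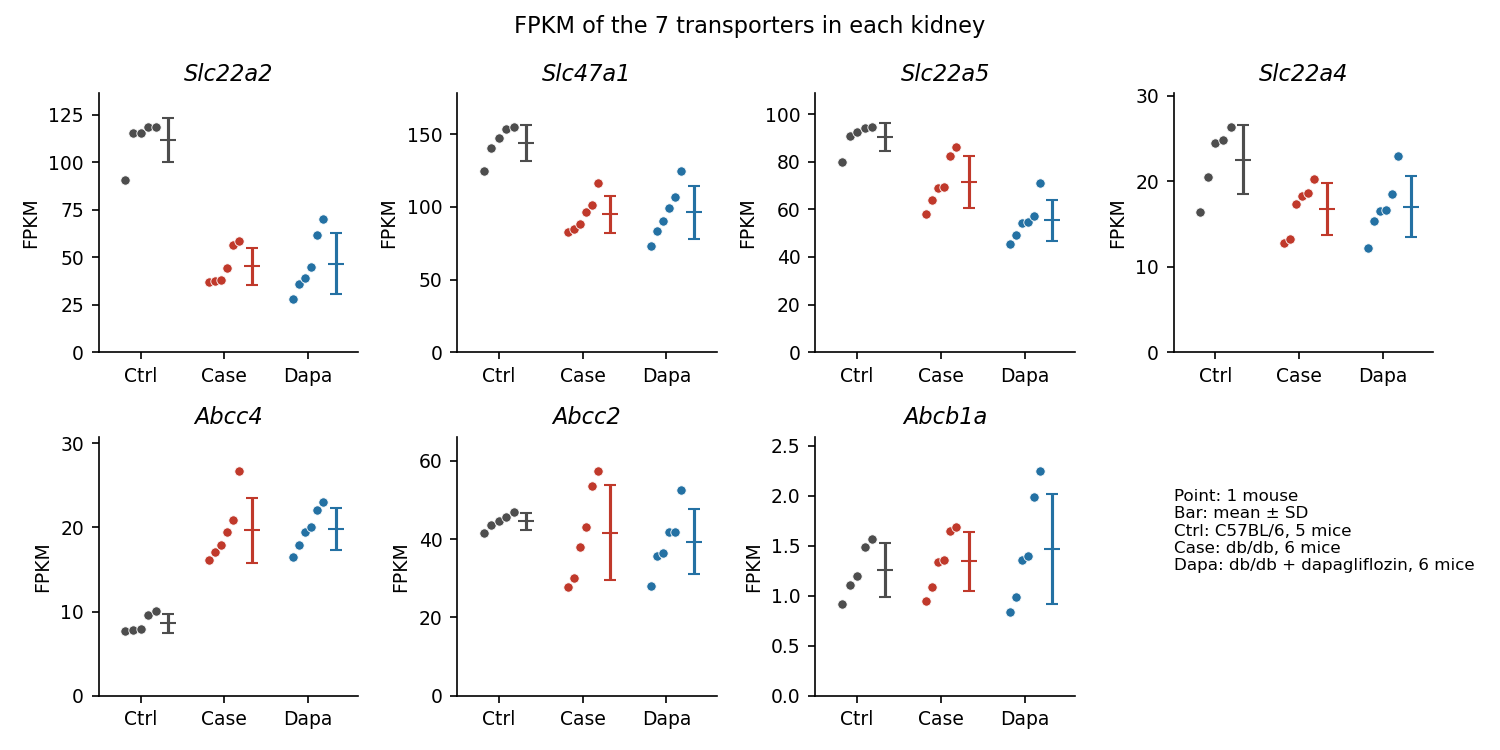
FPKM (vertical axis, from 0) of each of the 7 genes in each mouse, by group (horizontal axis), with the points of a group set from lowest to highest and bars for mean ± SD. The 5 Ctrl mice sit above all Case mice for Slc22a2 and Slc47a1 and below all of them for Abcc4, while the groups overlap for Slc22a4, Abcc2 and Abcb1a.

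Slc22a2, the basolateral uptake transporter of organic cations, had the largest difference of the 7. Its FPKM was 116, 118, 119, 90.9 and 115 in Ctrl mice 1 to 5. In Case it ran from 36.7 to 58.7 with a median of 41.1, and in Dapa from 28.2 to 70.2 with a median of 42.1. Every db/db mouse lay below every Ctrl mouse, and the lowest Ctrl value, in Ctrl 4, stood apart from the other 4. The mean of 112 ± 11.8 FPKM in Ctrl (SD, n = 5) was 2.47-fold that of Case (45.2 ± 9.92, SD, n = 6) and 2.39-fold that of Dapa (46.7 ± 16.1, SD, n = 6). Slc22a2 fell by 1.39 on the log2 scale in Case against Ctrl (SE 0.15, adjusted p = 0.000221) and by 1.37 in Dapa against Ctrl (SE 0.20, adjusted p = 0.000650). Dapa and Case differed by 0.02 (95% interval -0.42 to 0.46, adjusted p = 0.972). Within the possible batch the log2 ratio of mean FPKM of Case to Ctrl was -1.54 (1 Case and 3 Ctrl mice) and outside it -1.32 (5 and 2). That of Dapa to Ctrl was -1.53 within (3 mice each) and -1.06 outside (3 and 2).

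Slc47a1 encodes the apical exchanger that passes on what OCT2 takes up, and it was the most abundant of the 7 per transcript length in all 3 groups. Ctrl mice 1 to 5 held 148, 153, 140, 124 and 155 FPKM. Case ran from 82.7 to 116 (median 92.7) and Dapa from 72.9 to 125 (median 94.8). All Case mice lay below all Ctrl mice, and of the Dapa mice 5 of 6 did, since Dapa 7 (124.7) lay just above Ctrl 4 (124.5). The means were 144 ± 12.4 in Ctrl (SD, n = 5), 95 ± 12.6 in Case and 96.2 ± 18.3 in Dapa (SD, n = 6 each). Slc47a1 fell by 0.68 on the log2 scale in Case (SE 0.12, adjusted p = 0.00371) and by 0.69 in Dapa (SE 0.13, adjusted p = 0.00262) against Ctrl, and Dapa and Case differed by -0.004 (95% interval -0.30 to 0.30). The log2 ratio of means of Case to Ctrl was -0.63 within the possible batch and -0.68 outside it, and that of Dapa to Ctrl -0.74 and -0.48.

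The fall of the uptake transporter was deeper than that of the exchanger in the same mice. The ratio of Slc22a2 to Slc47a1 FPKM was 0.783, 0.772, 0.845, 0.730 and 0.744 in Ctrl mice 1 to 5. The Case mice had 0.393 to 0.579, with a median of 0.46, and the Dapa mice 0.336 to 0.622, with a median of 0.483, so no db/db mouse reached the Ctrl range. The mean log2 ratio was lower by 0.72 in both Case and Dapa than in Ctrl. The exact two-sided permutation test gave p = 0.00216 for Case, which is the smallest p this test can give, and p = 0.00433 for Dapa, and both had an adjusted p of 0.0130 over the 6 ratio tests made. With the difference of group medians in place of means, the values were -0.75 and -0.68 and both calls were lost (exact permutation, adjusted p = 0.156 for each). Between Dapa and Case the ratio differed by -0.005 (exact permutation p = 0.974, adjusted p = 0.974).

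**Figure D2:**
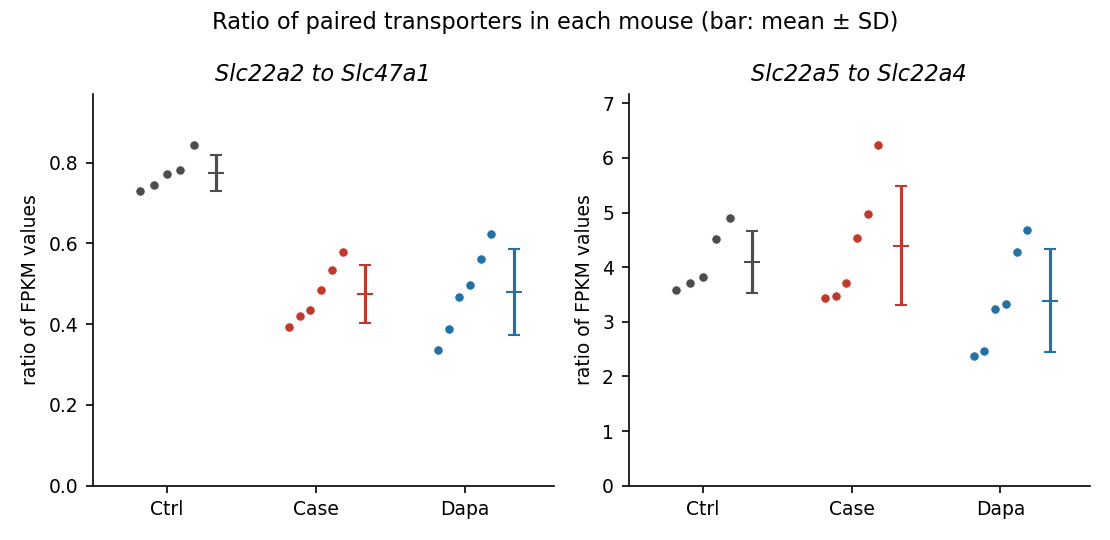
Ratio of FPKM values of Slc22a2 to Slc47a1 and of Slc22a5 to Slc22a4 in each mouse (vertical axes, from 0), by group, with points from lowest to highest and bars for mean ± SD. The Slc22a2 to Slc47a1 ratio is 0.730 to 0.845 in the Ctrl mice and at most 0.622 in any db/db mouse, while the Slc22a5 to Slc22a4 ratio overlaps between all groups.

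Slc22a5, the carnitine transporter, was lowest in the mice given dapagliflozin. Its FPKM was 94.2, 90.9, 94.5, 80.0 and 92.7 in Ctrl mice 1 to 5. Case ran from 58.0 to 86.1 (median 69.4) and Dapa from 45.5 to 70.9 (median 54.6). Every Dapa mouse lay below every Ctrl mouse, 4 of 6 Case mice did, and 5 of 6 Dapa mice lay below all Case mice. The means were 90.5 ± 6.02 in Ctrl (SD, n = 5), 71.5 ± 10.8 in Case and 55.4 ± 8.72 in Dapa (SD, n = 6 each). Against Ctrl, Slc22a5 fell by 0.82 on the log2 scale in Dapa (SE 0.11, adjusted p = 0.000532) and by 0.42 in Case (SE 0.12, adjusted p = 0.0352). Dapa lay below Case by a log2 fold change of -0.39 (SE 0.13, 95% interval -0.67 to -0.11), the only one of the 7 with an unadjusted p under 0.05 in that comparison, but with an adjusted p of 0.255 it did not pass (0.119 to 0.378 in the other settings, 0.119 to 0.493 with a mouse left out).

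The Case result of Slc22a5 was near the threshold. The call was lost with a term for the possible batch (adjusted p = 0.0983), and when any of 7 mice was left out, namely Ctrl 1, 2, 3 or 5 or Case 2, 4 or 6 (adjusted p 0.0847, 0.0739, 0.0863, 0.0674, 0.0668, 0.0627 and 0.0610). The log2 ratio of means of Case to Ctrl was -0.12 within the possible batch, which held 1 Case mouse, and -0.41 outside it. In Dapa against Ctrl it was -0.84 within and -0.59 outside, and the call held in all 11 leave-outs and all 11 other settings. Slc22a21, with which Slc22a5 shares sequence, lay at 0.606 ± 0.167 FPKM in Ctrl (SD, n = 5) and 1.43 ± 0.570 in Dapa (SD, n = 6).

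Slc22a4, the ergothioneine transporter next to Slc22a5, was lower in the db/db groups by a similar amount in both, with overlap. Ctrl mice 1 to 5 held 26.3, 24.5, 24.8, 16.4 and 20.6 FPKM. Case ran from 12.8 to 20.3 (median 17.8) and Dapa from 12.2 to 23.0 (median 16.6), and only 2 of 6 mice in each lay below all Ctrl mice. The means were 22.5 ± 4.04 in Ctrl (SD, n = 5), 16.8 ± 3.06 in Case and 17 ± 3.58 in Dapa (SD, n = 6 each). The log2 fold change was -0.51 in Case against Ctrl (SE 0.17, adjusted p = 0.0616, did not pass) and -0.52 in Dapa against Ctrl (SE 0.16, adjusted p = 0.0279, passed). The 2 results lie on either side of the threshold and do not show a difference between Case and Dapa, which differed by -0.01 (95% interval -0.34 to 0.33). The Case result passed without Ctrl 4 (adjusted p = 0.0233). The Dapa call was lost without Ctrl 1, 2 or 3 or Dapa 9 or 11 (adjusted p 0.0786, 0.0668, 0.0688, 0.0533 and 0.0595). The log2 ratio of mean FPKM was -0.77 within the possible batch, which held 1 Case mouse, and -0.37 outside it in Case against Ctrl, and -0.42 and -0.38 in Dapa against Ctrl.

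The carnitine and ergothioneine transporters did not change their ratio by the test. Slc22a5 stood at 4.10 ± 0.570 times Slc22a4 in Ctrl (SD, n = 5), 4.39 ± 1.09 times in Case and 3.39 ± 0.938 times in Dapa (SD, n = 6 each). The log2 ratio differed by 0.08 in Case against Ctrl (exact permutation p = 0.688, adjusted p = 0.826), by -0.31 in Dapa against Ctrl (exact permutation p = 0.160, adjusted p = 0.240) and by -0.39 in Dapa against Case (exact permutation p = 0.104, adjusted p = 0.208).

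Abcc4 was the gene of the 7 that rose. The pump it encodes sits in the apical membrane of the proximal tubule and exports organic anions, cyclic nucleotides and urate. Ctrl mice 1 to 5 held 7.88, 7.80, 7.74, 10.1 and 9.54 FPKM. Case ran from 16.1 to 26.7 (median 18.7) and Dapa from 16.5 to 23.0 (median 19.7), so every db/db mouse lay above every Ctrl mouse. The mean of 8.61 ± 1.12 in Ctrl (SD, n = 5) rose 2.28-fold in Case (19.7 ± 3.86, SD, n = 6) and 2.30-fold in Dapa (19.8 ± 2.46, SD, n = 6). The log2 fold change was 1.12 in Case (SE 0.13, adjusted p = 0.000459) and 1.10 in Dapa (SE 0.10, adjusted p = 8.68e-05) against Ctrl, and -0.01 between Dapa and Case (95% interval -0.29 to 0.26). Within the possible batch the log2 ratio of means of Case to Ctrl was 0.99 and outside it 1.22, and that of Dapa to Ctrl 1.34 and 1.05. None of the 20 proximal tubule markers rose in either comparison with Ctrl. Of the 12 markers of the loop of Henle, distal nephron and collecting duct, 5 rose in Case and 8 in Dapa. The part of these shifts in the Abcc4 result was not tested.

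Abcc2, the apical pump for conjugated anions, did not pass in any comparison, and its spread differed between groups. Ctrl mice 1 to 5 held 44.6, 43.6, 47.0, 41.5 and 45.7 FPKM. Case ran from 27.7 to 57.4 (median 40.5) and Dapa from 27.9 to 52.4 (median 39.2), with mice above and below the Ctrl range in both. The SD was 2.08 FPKM in Ctrl, 12.1 in Case and 8.19 in Dapa. The difference in spread was not tested and was not particular to Abcc2. Slc22a5 and Slc5a2 also had a larger SD in both db/db groups than in Ctrl, while Slc22a4 had a smaller one in both. The log2 fold change was -0.17 in Case against Ctrl (95% interval -0.57 to 0.23, adjusted p = 0.590), -0.28 in Dapa against Ctrl (-0.57 to 0.003, adjusted p = 0.125) and -0.11 in Dapa against Case (-0.53 to 0.32, adjusted p = 0.852). Without Dapa 8, the highest of its group, the Dapa result against Ctrl passed (adjusted p = 0.0320). The log2 ratio of mean FPKM of Dapa to Ctrl was -0.41 within the possible batch and 0.023 outside it, and that of Case to Ctrl -0.23 and -0.076. That of Dapa to Case turned direction, with -0.19 within, where there was 1 Case mouse, and 0.099 outside.

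Abcb1a, one of the genes for P-glycoprotein, was the least abundant, with 77 to 254 counts per mouse. Ctrl mice 1 to 5 held 1.20, 0.922, 1.57, 1.49 and 1.10 FPKM, Case 0.947 to 1.68 (median 1.35) and Dapa 0.843 to 2.25 (median 1.38). The groups overlapped throughout. The log2 fold change was 0.02 in Case against Ctrl (95% interval -0.38 to 0.41, adjusted p = 0.966), 0.12 in Dapa against Ctrl (-0.40 to 0.65, adjusted p = 0.738) and 0.11 in Dapa against Case (-0.39 to 0.61, adjusted p = 0.868). The direction of the Dapa values turned with the possible batch. The log2 ratio of mean FPKM of Dapa to Ctrl was -0.40 within it (3 mice each) and 0.88 outside it (3 and 2), and that of Dapa to Case -0.65 within (3 and 1) and 0.55 outside (3 and 5). That of Case to Ctrl was 0.25 within and 0.33 outside. Its copy Abcb1b did not pass either (log2 fold change 0.30 in Case and 0.30 in Dapa against Ctrl, adjusted p 0.487 and 0.544).

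**Figure D3:**
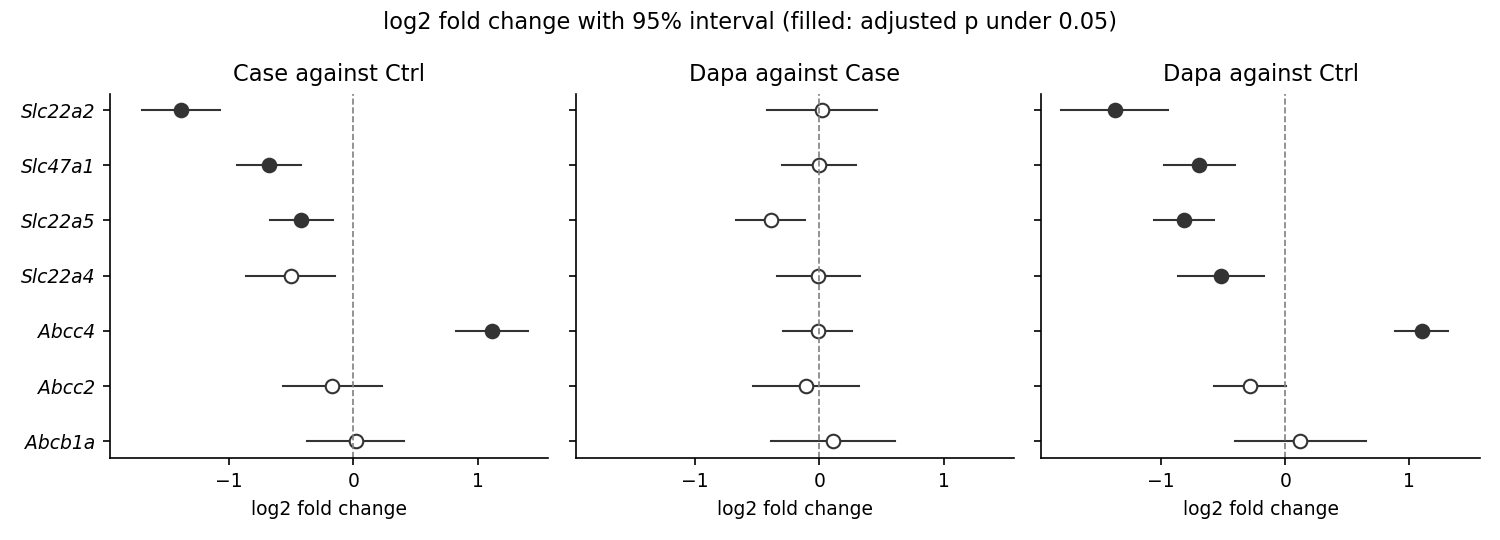
log2 fold change (horizontal axis) of the 7 genes with the 95% interval of edgeR's quasi-likelihood fit in each comparison, filled where the adjusted p was under 0.05. Slc22a2, Slc47a1 and Slc22a5 lie below 0 and Abcc4 above 0 in both comparisons with Ctrl, and between Dapa and Case no point is filled and only the interval of Slc22a5 (-0.67 to -0.11) leaves out 0.

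Over all 7 genes the median log2 fold change was -0.42 in Case against Ctrl, where that of all genes tested was 0.03, and -0.52 in Dapa against Ctrl (all genes 0.02). In Dapa against Case it was -0.008 (all genes -0.006). Within the possible batch, which held 1 Case mouse, and outside it, the log2 ratio of mean FPKM of Dapa to Case was -0.72 and -0.19 for Slc22a5 and 0.0052 and 0.26 for Slc22a2. It took opposite signs for Slc47a1 (-0.11 and 0.19), Slc22a4 (0.35 and -0.017) and Abcc4 (0.35 and -0.17), as for Abcc2 and Abcb1a. Groups did not overlap in FPKM for 3 of the 7 in Case against Ctrl (8.43% of all genes) and 3 of the 7 in Dapa against Ctrl (14.5%), and for none in Dapa against Case (0.48%). Under the rule for a DEG that the study used, which asks for an adjusted p under 0.05 together with mean FPKM values more than 2-fold apart, 2 of the 7 were DEGs against Ctrl in Case (3.79% of all genes) and in Dapa (7.18%), Slc22a2 and Abcc4 each time. The call of Slc22a2, Slc47a1 and Abcc4 against Ctrl held in every leave-out and every other setting tried.

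The order of the levels was not the same in Ctrl and in the db/db groups. Per transcript length, Ctrl mice ran Slc47a1, Slc22a2, Slc22a5, Abcc2, Slc22a4, Abcc4 and Abcb1a from the highest to the lowest mean FPKM, and each gene stood above the next in all 5 mice, although the ranges of Slc22a2 and Slc22a5 overlapped. In both db/db groups Slc22a5 stood above Slc22a2 and Abcc4 above Slc22a4. Slc22a5 exceeded Slc22a2 in 6 of 6 Case mice and 5 of 6 Dapa mice, and Abcc4 exceeded Slc22a4 in 5 of 6 mice of each group. Slc22a2 and Abcc2 were neighbours with overlapping ranges in Case, where Slc22a2 was higher in 4 of 6 mice, and in Dapa, in 5 of 6. Among the Ctrl mice, Ctrl 4 had the lowest level of Slc22a2, Slc47a1, Slc22a5, Slc22a4 and Abcc2 and the highest of Abcc4.

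The genes whose levels were most like those of each transporter were taken from 11455 genes with a mean of at least 1 FPKM, by Pearson's r of log2(FPKM + 1) over the 17 mice. The values describe these mice, which fall into groups, and are given also after the group means were removed. For Slc22a2 they were Mep1a (r = 0.98, within groups 0.93), Galns (0.98 and 0.89) and Ace (0.97 and 0.90), of which Mep1a and Ace encode peptidases of the proximal brush border. For Slc47a1 they were Adhfe1 (0.98 and 0.94), Coasy (0.97 and 0.93) and Cyp2j5 (0.97 and 0.92), and for Slc22a5 Slc10a5 (0.97 and 0.88), Snap23 (0.96 and 0.87) and Erlin1 (0.96 and 0.85). Slc22a4 was most like Scamp2 (0.89 and 0.83), Rabl6 (0.87 and 0.89) and Rtn4ip1 (0.87 and 0.79), and Abcc2 most like Lclat1 (0.92 and 0.95), Ppp1r21 (0.92 and 0.93) and Ppara (0.89 and 0.96). Abcc4 was most like Asrgl1 (0.94), Gsto1 (0.94) and Abca5 (0.94), but within groups these fell to 0.56, 0.38 and 0.46. Abcb1a had the lowest likeness over the 17 mice, with D230025D16Rik (0.84 and 0.84), Prdx6 (0.80 and 0.81) and Zfp358 (0.79 and 0.84). Within groups these values lay above those of Abcc4. Slc22a2 and Slc47a1 were related to each other with r = 0.93 (0.76 within groups).

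The other genes of these pathways were taken from 4 lists. Their counts are to be read beside those of all genes tested, of which 13% passed in Case and 29.1% in Dapa against Ctrl. The median log2 fold change of all genes was 0.03 and 0.02 in these comparisons. Among 13 other transporters of organic cations, choline and carnitine, 10 could be tested, and 2 rose and none fell in Case against Ctrl. In Dapa against Ctrl 4 rose and 1 fell, and the list's median log2 fold change was 0.26 and 0.31. Slc22a3, the neighbour of Slc22a2 and a cation transporter of low affinity, was rare at 0.235 ± 0.152 FPKM in Ctrl (SD, n = 5, 6 to 29 counts) and rose to 0.786 ± 0.391 in Case and 0.768 ± 0.320 in Dapa (SD, n = 6 each). That was a log2 fold change of 1.65 (SE 0.44, adjusted p = 0.0295) and 1.59 (SE 0.42, adjusted p = 0.0135), and the Case call was lost without Ctrl 1, 2, 4 or 5 or Case 1 or 2 (adjusted p up to 0.0782). Slc22a21, a carnitine transporter, rose by a log2 fold change of 1.12 in Dapa against Ctrl (SE 0.26, adjusted p = 0.00771). Of its 50-base stretches, 22.0% also occur in other genes, most in the far more abundant Slc22a5, so this value is uncertain.

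Slc44a2, a choline transporter-like protein, rose in Case (log2 fold change 0.52, SE 0.13, adjusted p = 0.0206) and Dapa (0.77, SE 0.15, adjusted p = 0.00302) against Ctrl, with means of 11.3, 17.1 and 20.6 FPKM in Ctrl, Case and Dapa. Its Case call was lost without Ctrl 2 or 3 (adjusted p 0.0538 and 0.0572) and with the batch term (0.0624). The other gene that passed in Dapa, named after its values were seen, was Slc35f2 (0.32, adjusted p = 0.0383). Slc47a2 and Slc29a4 did not pass the filter on low counts, and Slc22a16 was not analysed here.

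Among 10 other ABC efflux pumps, 7 could be tested. Of these 1 rose and 1 fell in Case, and 2 rose and 1 fell in Dapa, against Ctrl (all genes passed at 13% and 29.1%). Abcg2, the apical urate and drug pump, fell by 0.58 on the log2 scale in Case (SE 0.12, adjusted p = 0.0112) and by 0.66 in Dapa (SE 0.13, adjusted p = 0.00314), from 46.3 FPKM in Ctrl to 32.8 and 31.6. Abcc1 (MRP1), a basolateral pump close to Abcc4 in function, rose by a log2 fold change of 0.56 in Case (SE 0.13, adjusted p = 0.0155) and 1.09 in Dapa (SE 0.15, adjusted p = 0.000532), with 1.37 FPKM in Ctrl, 2.13 in Case and 3.14 in Dapa. Between Dapa and Case Abcc1 differed by 0.54 (SE 0.12, adjusted p = 0.179), which did not pass here, while DESeq2 and edgeR's exact test called it (adjusted p 0.0149 and 0.0264). Abcc3 (MRP3) rose in Dapa against Ctrl by 1.45 (SE 0.50, adjusted p = 0.0443), but the call was lost when any of 7 mice was left out, Ctrl 1, 2, 4 or 5 or Dapa 8, 10 or 11 (adjusted p up to 0.0962).

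**Figure D4:**
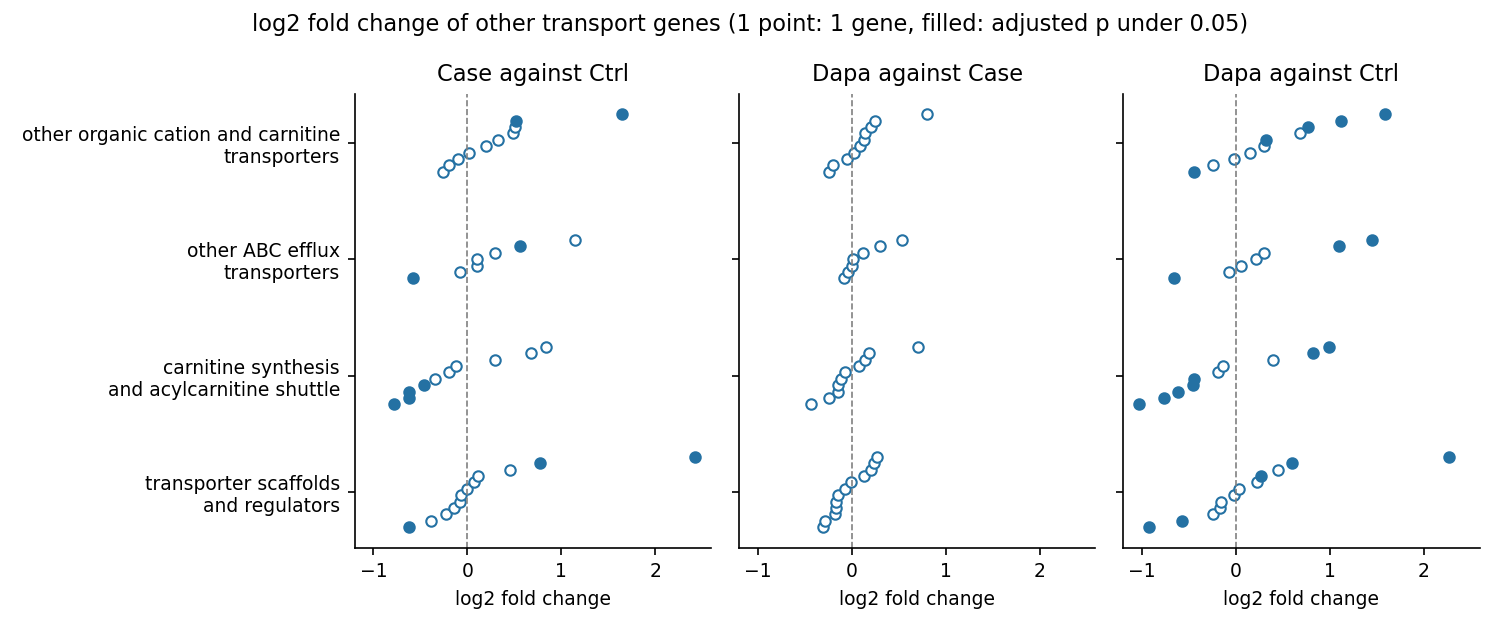
log2 fold change (horizontal axis) of each tested gene of the 4 pathway lists in each comparison, 1 point per gene, set from lowest to highest within a list and filled where the adjusted p was under 0.05. In Case against Ctrl 11 points are filled and in Dapa against Ctrl 20, and between Dapa and Case none is. Of all genes tested, 13%, 29.1% and 0% passed in these comparisons.

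Of the 10 genes that make carnitine or shuttle acyl groups with it, all 10 could be tested. In Case against Ctrl 4 fell and none rose (median -0.27), while in Dapa against Ctrl 5 fell and 2 rose (median -0.32). Of all genes tested, 6.91% fell in Case and 14.9% in Dapa, and their medians were 0.03 and 0.02. Crot, the peroxisomal carnitine octanoyltransferase, fell by 0.78 in Case (SE 0.16, adjusted p = 0.00958) and by 1.03 in Dapa (SE 0.20, adjusted p = 0.00334) on the log2 scale, from 60.5 FPKM in Ctrl to 37.4 and 32.0. Tmlhe, the enzyme that starts carnitine synthesis from trimethyllysine, fell by 0.62 in Case (SE 0.14, adjusted p = 0.0160) and by 0.77 in Dapa (SE 0.16, adjusted p = 0.00388). Crat, carnitine acetyltransferase, and Cpt2, the inner-membrane palmitoyltransferase, fell by 0.63 (SE 0.18, adjusted p = 0.0395) and 0.47 (SE 0.13, adjusted p = 0.0312) in Case. Each of those Case calls was lost when any Ctrl mouse, or any of 3 Case mice (Case 2, 3 or 6 for Crat and Case 2, 4 or 6 for Cpt2), was left out (adjusted p up to 0.0831 and 0.0694), and with the batch term (0.106 and 0.0907). Both were also lost with limma on log2 FPKM with a pseudocount of 1 or 0.1 (Crat 0.0613 and 0.0624, Cpt2 0.0587 and 0.0576), and that of Cpt2 with all 3 groups in one fit (0.0710). In Dapa against Ctrl Crat, Cpt2 and Aldh9a1, named after their values were seen, also fell. The 2 that rose were Cpt1b, the muscle-type palmitoyltransferase (0.82, SE 0.25, adjusted p = 0.0258, lost without Ctrl 1, 2, 3 or 5 or Dapa 10, adjusted p up to 0.0595), and Slc25a29, a mitochondrial carrier of basic amino acids (0.99, SE 0.22, adjusted p = 0.00627). Slc25a29 had 1.01 FPKM in Ctrl, 1.3 in Case and 2.16 in Dapa, and between Dapa and Case it was called by DESeq2 (adjusted p = 0.00968) and edgeR's exact test (0.0284) but not by the quasi-likelihood test (0.179).

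Of 12 scaffolds and regulators of these transporters, all tested, 2 rose and 1 fell in Case and 3 rose and 2 fell in Dapa against Ctrl. The shares of all genes that passed were 13% and 29.1%. Pdzk1, the scaffold that holds OCTN2 and other carriers in the brush border, fell by 0.62 in Case (SE 0.17, adjusted p = 0.0282) and by 0.93 in Dapa (SE 0.15, adjusted p = 0.00107) on the log2 scale, and its Case call was lost without Ctrl 1, 2, 3 or 5 (adjusted p up to 0.0724) and with the batch term (0.0688). Hnf4a, a master regulator of proximal tubule genes that is also on the marker list, fell by 0.57 in Dapa (SE 0.14, adjusted p = 0.00883) and had -0.38 in Case (SE 0.13, adjusted p = 0.0616). Nr1i2, the xenobiotic receptor PXR, rose by 0.77 in Case (SE 0.18, adjusted p = 0.0172, lost without Ctrl 3 or 5 with 0.0513 and 0.0520) and by 0.60 in Dapa (SE 0.20, adjusted p = 0.0423). That Dapa call was lost without Ctrl 2, 3, 4 or 5 or Dapa 7, 8, 9 or 11 (adjusted p up to 0.0963), with the batch term (0.0583) and with no filter on low counts (0.0552). Nr1i3, the receptor CAR, had the largest change of the list, 2.42 in Case (SE 0.54, adjusted p = 0.0133) and 2.27 in Dapa (SE 0.39, adjusted p = 0.00161). It stood at only 4 to 13 counts per Ctrl mouse, and 63.6% of its 50-base stretches also occur in other genes, most in Tomm40l, so this value is uncertain. Nfe2l2 (NRF2) rose in Dapa by 0.27 (adjusted p = 0.0310), named after its values were seen, and Ppara (-0.02, adjusted p = 0.938) did not pass there.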

How the data were processed

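RNA of whole kidneys was measured in 17 mice, and groups were those of the sample labels. Libraries were made with a strand-specific kit after selection with oligo(dT), and the authors used HISAT2 for alignment to mm10 and Stringtie for the read counts per gene that they deposited. Whether the strand was used in counting is not given in the sources used here. The authors also deposited an FPKM value for each count. These followed count over library total and length within 0.0022% (10649 genes with at least 50 counts in every mouse) and so hold no TMM factor, although the paper names TMM. Of 22561 genes, 3 were left out (Sirt1, Tgfb1 and Bmp4), since their rows were broken over 2 lines and their FPKM went against the counts in 7 libraries (factors 0.725 to 1.03). Depth was 13039535 to 17779635 counts per library, and no 2 libraries of a group were duplicates (lowest chi-square per gene 15.1). The mice are separate animals, and intervals of the fit cover the spread between them.

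The 7 transporters, the lists and the tests were chosen with earlier results of these data known. Counts were compared with edgeR 4.0.16 in R 4.3.3 (TMM, filterByExpr, quasi-likelihood test, Benjamini-Hochberg over all genes tested), each comparison fitted on its own 2 groups. The SE was the log2 fold change over the square root of F. For ratios of 2 genes per mouse the test was an exact permutation test, two-sided and adjusted over 6 tests. The fit was repeated with DESeq2 1.42.0, edgeR's exact test, RLE and upper quartile scaling, TMM without mitochondrial genes, no filter, at least 10 counts in every mouse, all 3 groups in one fit, limma 3.58.1 on log2(FPKM + 1) and log2(FPKM + 0.1), a term for the 7 libraries as a possible batch, the replicate number as a block, each mouse left out, and for ratios counts, a pseudocount of 1 and group medians. Named were all 7 members and, of each pathway list and comparison, up to 4 genes with the largest change among those past the test. Promoters were found in RefSeq's table (GRCm38.p6) for 6 of the 7, all but Slc47a1, and overlaps and shared 50-base stretches were taken from GENCODE vM21. Python 3.11.15, numpy 2.4.6, scipy 1.17.1, pandas 2.3.3 and matplotlib 3.10.9 were used. The fit and the permutation test were tested on simulated data. Replicate numbers did not pair the Ctrl and Case mice. The authors' term annotations, and the protein, chromatin and blood measurements of the study, were not used here. Single results of some genes of the pathway lists and of 1 motif are not reported here.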

Additional observations from a re-analysis of the deposited data

Results flagged for a closer look

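In 78 groups of values 7 values stood apart from the rest of their group by Dixon's ratio of gap to range, a rule that flags about 1 group in 20 by chance. Ctrl 4 was low for Slc22a2 (90.9 FPKM, the others 115 to 119), for Slc22a5 (80.0, the others 90.9 to 94.5) and for Tmlhe (9.83, the others 12.9 to 14.1), and high for Cpt1b (14.3, the others 4.92 to 7.51). Ctrl 3 was high for Abcc3 (0.903 FPKM, the others 0.101 to 0.307). Dapa 7 was high for Cpt2 (26.1 FPKM, the others 11.5 to 16.1). Dapa 11 was high for Slc22a21 (2.55 FPKM, the others 0.974 to 1.46). Without Ctrl 4, the log2 fold change of Slc22a2 in Case against Ctrl was -1.47 and that of Slc22a5 -0.47, both still past the test (adjusted p 0.000135 and 0.0256, edgeR's quasi-likelihood test).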

How the results depend on the processing

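The number of the 7 genes called stayed at 3 to 5 in Case against Ctrl, at 0 in Dapa against Case and at 4 to 6 in Dapa against Ctrl over every alternative and every mouse left out. Over all single genes named, 918 of 1055 recomputed values kept their direction and call. In Case against Ctrl the genes called were 1895 (1219 with the batch term, 1002 to 2154 with a mouse left out, the lowest without Ctrl 3), and those of the 4 pathway lists 11 (7 with the batch term, 6 to 12 with a mouse left out, under 8 without Ctrl 1, 2, 3 or 5). The replicate number as a block gave 707 and 2 of these and 3 of the 7 transporters, with Slc22a5 lost (adjusted p = 0.101). Ctrl and Case mice of the same number did not vary together (correlations -0.102 to -0.039), so the numbers do not pair them. In Dapa against Case all genes called were 0 (202 with DESeq2, 129 with edgeR's exact test, 5 with all 3 groups in one fit, 7 without Dapa 7 and 0 without any other mouse), and of the pathway lists 0 (2, Abcc1 and Slc25a29, with DESeq2 and 2 with the exact test). The cause of these differences was not tested.

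Slc22a4 in Case against Ctrl, not called, was called with DESeq2 (adjusted p = 0.0284), edgeR's exact test (0.0356) and all 3 groups in one fit (0.0478), and in Dapa against Ctrl its call was lost with limma (0.0676 and 0.0666). With group medians the Slc22a2 to Slc47a1 log2 ratio differed by -0.75 in Case and -0.68 in Dapa against Ctrl (exact permutation, adjusted p = 0.156 for both) and by 0.073 in Dapa against Case. With a mouse left out it ran from -0.086 to 0.092 in Dapa against Case, and the Slc22a5 to Slc22a4 log2 ratio from -0.033 to 0.14 in Case against Ctrl. Changes near 0 that did not pass took either sign. In Dapa against Case, Slc22a4 had 0.017 and 0.018 with the limma fits and 0.058 with the batch term, Slc47a1 0.00028 without mitochondrial genes in TMM, 0.0071 and 0.0070 with the limma fits and 0.088 with the batch term, and Abcc4 0.022 and 0.023 with the limma fits. With a mouse left out, the log2 fold change in Dapa against Case ran from -0.13 to 0.13 for Slc22a2, -0.10 to 0.061 for Slc22a4, -0.089 to 0.066 for Slc47a1, -0.045 to 0.23 for Abcb1a, -0.20 to 0.0052 for Abcc2 and -0.073 to 0.093 for Abcc4. That of Abcb1a ran from -0.076 to 0.11 in Case and from -0.035 to 0.25 in Dapa against Ctrl.

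Limma on log2(FPKM + 1) moved the share of higher genes among all calls from 46.9% to 59.1% in Case against Ctrl and from 48.7% to 66.2% in Dapa against Ctrl, and with a pseudocount of 0.1 the median log2 fold change of all genes in the latter was 0.11. The direction of every called member held. Depth limits Abcb1a, Slc22a3 and Nr1i3, whose counts were low. Strain and genotype cannot be told apart, and with these mice the 95% intervals of the 7 genes in Dapa against Case lay between -0.67 and 0.61 log2 units.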

Other observations

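Lepr, whose db allele all 12 db/db mice carry, was listed at 0.464 to 1.93 FPKM in Ctrl, 0.659 to 5.40 in Case and 0.417 to 4.85 in Dapa. The thiamine transporter Slc19a2 had 1.01 ± 0.394 FPKM in Ctrl (SD, n = 5), 1.5 ± 0.757 in Case and 1.34 ± 0.820 in Dapa (SD, n = 6 each), and Slc19a3, the other thiamine transporter, 5.88 ± 0.772, 5.20 ± 1.54 and 5.34 ± 1.44, and neither passed in any comparison. Bbox1, which makes carnitine in the last step of its synthesis, was rare (0.840 ± 0.272 FPKM in Ctrl, SD, n = 5, 1.57 ± 0.542 in Case and 1.18 ± 0.465 in Dapa, SD, n = 6 each) and did not pass.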
